A study of Mus musculus with 2 samples.

Results

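Oxidative stress defence was followed through 10 genes in mouse peritoneal macrophages: Nfe2l2, 7 genes known as targets of the factor it encodes (Gclc, Gclm, Gsr, Nqo1, Hmox1, Txnrd1 and Srxn1) and the metallothionein genes Mt1 and Mt2. The members were chosen by function, with earlier results of these arrays known, and all probe sets that the platform's annotation gives to exactly 1 of these symbols were taken. That gave 20 probe sets of 10 genes, among 45101 probe sets and 18193 genes on the array. The macrophages came from the peritoneal cavity of C57BL/6J mice 3 days after thioglycolate, an irritant that recruits these cells. Both cultures received LPS (lipopolysaccharide, a bacterial cell wall component) and CPN, a compound that the labels give only by this abbreviation, and 1 of them also received GGOH (geranylgeraniol, an isoprenoid alcohol). The sources used here do not state doses, durations or the number of mice behind each culture. Each condition was measured on 1 array, so no gene has a test, an SD or a p-value, and precision is limited by this number of arrays.

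NRF2, the protein of Nfe2l2, is a transcription factor that KEAP1 marks for degradation until oxidants or electrophiles block that step. Freed NRF2 pairs with small MAF proteins at antioxidant response elements and switches on genes that make glutathione, recycle thioredoxin, reduce quinones and break down heme. Metallothioneins are small cysteine-rich proteins that bind zinc and copper, and their genes answer to the zinc-sensing factor MTF1 as well as to oxidative and inflammatory stress. In macrophages these systems buffer the oxidants that the cells make when LPS activates them.

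Promoter sequence is shown for Mt1, Mt2 and Srxn1, since both metallothionein genes read higher on the LPS+CPN+GGOH array and Srxn1 alone held 2 AP-1 type motifs. RefSeq promoter windows (GRCm38.p6, 300 bases each, 250 before the annotated start and 50 after it) were found for 7 of the 10 members: Nfe2l2, Srxn1, Gclm, Mt1, Mt2, Nqo1 and Txnrd1, the last with 3 starts. Only the 250 bases before the start are printed, 5′ to 3′. In Mt1 (chr8:94178839-94179088, plus strand) and Mt2 (chr8:94172368-94172617, plus strand) the capitals mark the metal response element cores TGCACNC and TGCGCNC on either strand:
Mt1: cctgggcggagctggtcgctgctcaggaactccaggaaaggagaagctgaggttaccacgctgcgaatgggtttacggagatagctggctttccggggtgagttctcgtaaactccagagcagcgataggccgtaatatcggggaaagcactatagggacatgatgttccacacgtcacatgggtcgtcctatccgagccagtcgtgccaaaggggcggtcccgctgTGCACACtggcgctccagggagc
Mt2: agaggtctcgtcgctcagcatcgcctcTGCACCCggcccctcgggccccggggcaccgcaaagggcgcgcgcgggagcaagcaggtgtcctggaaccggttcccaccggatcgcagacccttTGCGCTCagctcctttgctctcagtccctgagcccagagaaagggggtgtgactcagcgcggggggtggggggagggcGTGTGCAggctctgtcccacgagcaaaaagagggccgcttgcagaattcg

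Over the whole 300-base window Mt2 held 4 such cores, 3 of them in the printed stretch, and Mt1 held 3, of which 1 is in the printed stretch and 2 follow the annotated start. One or more of these cores was present in 25.7% of 32851 RefSeq promoter windows, and 3 or more in 1.97%. Gclm, which is no metallothionein gene, also held 3. In Srxn1 (chr2:152105416-152105491, plus strand) the capitals mark TGAGTCA, the letters of an AP-1 type element:
Srxn1: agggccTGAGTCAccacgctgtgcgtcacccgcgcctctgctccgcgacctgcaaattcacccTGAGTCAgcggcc

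TGAGTCA was searched on both strands and occurred in 5.20% of all windows. Among the members with a window only Srxn1, with 2 matches, and Mt2, with 1, held it. The antioxidant response element core TGACNNNGC, also searched on both strands, occurred in 12.4% of all windows. It was found in the windows of Nfe2l2, Gclm, Mt2, Srxn1 and 1 start of Txnrd1, but not in those of Mt1 and Nqo1. In Mt2 the TGACNNNGC match overlaps the TGAGTCA match, both beginning 79 bases before the start. These are matches of letters and not measured binding sites, and sequence outside the windows was not searched.

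The 2 arrays differed in cell markers and in RNA ends. Values are linear signals, a log2 ratio is positive where the signal was higher with GGOH, and the floor is a signal of 59.9, the 50th percentile over both arrays. Each gene is represented by its brightest probe set outside the _x_at class, which can cross-hybridize. All 12 macrophage markers were above the floor on both arrays, with a summed signal of 209453 with LPS+CPN and 182323 with GGOH. Cd68, Lyz2 and Lgals3 were the brightest, with log2 ratios of 0.02, -0.27 and -0.43. Of the 12, 8 were below 0 and 4 above, from Mertk at -0.73 to Itgam at 1.05 (312 and 646). Of 14 fibroblast and mesothelial markers, 3 were above the floor with LPS+CPN and 13 with GGOH, and their summed signal was 1446 and 29567. Col1a2, Sparc and Dcn were the brightest of these, at 11165, 9006 and 5043 with GGOH. The neutrophil marker S100a8 read 4282 and 2216, with Ngp and Elane near the floor. S100a9 (3.49 and 2.59) and Camp (57.7 and 47.0), of the same list, were under the floor on both arrays. Of these 5 neutrophil markers, 3 were above the floor with LPS+CPN and 1 with GGOH. None of the cell markers was listed at 0. No lymphocyte marker (Cd3e, Cd2 and Ms4a1 the brightest) was above the floor on either array. Neither was any mast cell or endothelial marker (Cpa3, Kit and Cdh5 the brightest). The ratio of 3′ to 5′ signal was 2.44 for Actb and 1.98 for Gapdh with LPS+CPN, and 1.24 and 0.956 with GGOH. The part of these differences in the values of the members was not tested, and in such bulk RNA fewer cells of a type and less RNA per cell cannot be told apart.

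On the arrays the members lay on both sides of equality. Signals of the glutathione genes were lower with GGOH and those of the metallothioneins were higher, with Nfe2l2 itself close to equal. All 10 genes were above the floor on both arrays. The log2 ratios of probe sets of 1 gene differed with a pooled SD of 0.45 over 4166 genes, which serves as the yardstick of error here. This SD contains no spread between cultures or arrays.

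**Figure D1:**
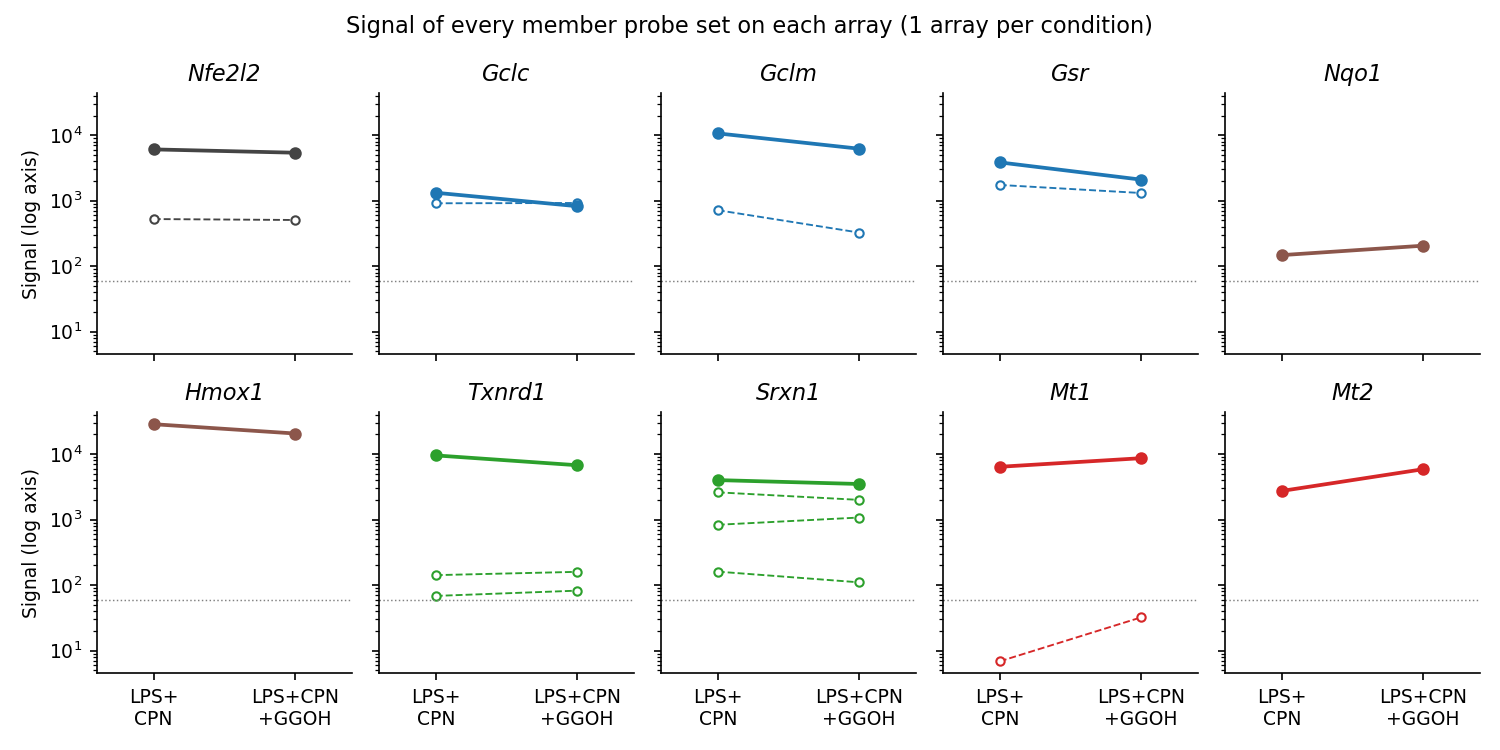
Signal of each of the 20 member probe sets on the LPS+CPN array (left) and the LPS+CPN+GGOH array (right) of each panel, on a log axis with 1 array per condition. Filled points and solid lines are the probe set that stands for the gene, open points and dashed lines are its other probe sets, and the dotted line is the floor of 59.9. By the probe set that stands for the gene, the 3 glutathione genes slope down and Mt2 slopes up. The other Gclc probe set is near level (log2 ratio 0.01), and 1 Mt1 probe set lies below the floor on both arrays.

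Nfe2l2 had a signal of 6082 with LPS+CPN and 5410 with LPS+CPN+GGOH, a log2 ratio of -0.17. Its second probe set gave 525 and 508, a log2 ratio of -0.05. Both lay well inside the spread between probe sets. The ratio of this gene was smaller in size than those of the 7 listed targets, and NRF2 protein was not measured.

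By their brightest probe sets, the 3 genes of glutathione supply were all lower on the LPS+CPN+GGOH array. Gclc and Gclm encode the catalytic and modifier subunits of glutamate-cysteine ligase, the rate-limiting enzyme of glutathione synthesis, and Gsr encodes the reductase that returns oxidized glutathione to its reduced form. Gsr went from 3851 with LPS+CPN to 2100 with GGOH, 1.83-fold lower (log2 ratio -0.88). Its other probe set went from 1742 to 1312 (-0.41), so both were lower by different amounts. Gclm went from 10679 to 6232, 1.71-fold lower (-0.78). Its dimmer probe set went from 717 to 326 (-1.14), which was the only member probe set more than 2-fold lower.

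Gclc went from 1325 to 825, 1.61-fold lower (-0.68). Its other probe set read 914 with LPS+CPN and 923 with GGOH, a log2 ratio of 0.01, so the lower value of Gclc rests on 1 of its 2 probe sets. Among 11518 measured genes, 2.64% had a ratio below that of Gsr, 3.81% below that of Gclm and 5.51% below that of Gclc.

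Of the heme and quinone enzymes, 1 was lower and the other higher. Hmox1 encodes heme oxygenase, which splits heme into biliverdin, carbon monoxide and iron. Its single probe set read 28619 with LPS+CPN and 20641 with GGOH, 1.39-fold lower (log2 ratio -0.47). Nqo1, which encodes a quinone reductase and is widely used as an NRF2 readout, read 148 and 206, 1.39-fold higher (0.48). Both ratios were just past the spread of 0.45 between probe sets, each with 1 probe set to rest on. Nqo1 was the only member whose geometric mean signal over the arrays was under 1000.

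The thioredoxin-side genes gave mixed probe sets. Txnrd1 encodes the cytosolic thioredoxin reductase and Srxn1 encodes sulfiredoxin, which repairs overoxidized peroxiredoxins. The brightest Txnrd1 probe set went from 9555 to 6767 (-0.50). Its 2 dim probe sets, 1 of them of the _x_at class, were slightly higher with GGOH, at 142 and 159 (0.17) and at 68.3 and 82.2 (0.27). Srxn1 went from 4009 to 3496 (-0.20), and its other probe sets gave -0.38, -0.54 and 0.37. The direction of Srxn1 was therefore set by which probe set was read, and all but the lowest of its 4 ratios lay inside the spread of 0.45.

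Both metallothionein genes read higher with GGOH, Mt2 by more than any other member. Mt2 read 2739 with LPS+CPN and 5879 with GGOH, 2.15-fold higher (log2 ratio 1.10), from its only probe set. Mt1 read 6406 and 8664, 1.35-fold higher (0.44), which is just inside the spread between probe sets. Mt1 was past that spread with quantile normalization (0.50), lowess (0.53) and macrophage markers equal (0.63). With arrays divided by their medians it was at 0.27. The Mt1 probe set is of the _s_at class, which can detect related transcripts as well. The second Mt1 probe set read 6.85 and 32.1, both under the floor, and was not measured. Mt2 ranked above 95.1% of measured genes and Mt1 above 82.5%. The neighbouring metallothionein genes Mt3 and Mt4, which lie beside Mt2 and Mt1 on chromosome 8, were under the floor on both arrays.

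**Figure D2:**
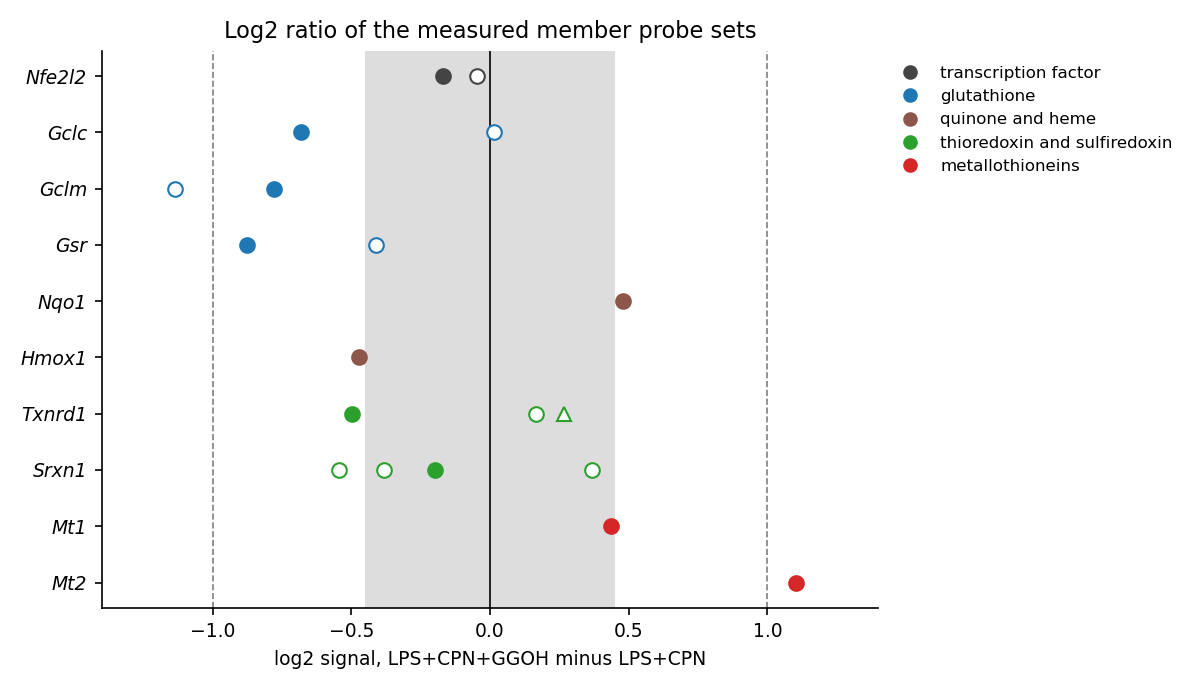
Log2 ratio (LPS+CPN+GGOH minus LPS+CPN) of the 19 measured member probe sets, coloured by role. Filled symbols stand for the gene, open circles are its other probe sets, the triangle is an _x_at probe set, the grey band is the SD of 0.45 between probe sets of a gene, and dashed lines mark 2-fold. Mt2 lies beyond 2-fold on the right and 1 Gclm probe set beyond it on the left, while Gclc, Txnrd1 and Srxn1 have probe sets on both sides of 0.

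The counts of members past 2-fold are set beside the shares over all measured genes. Mt2 alone, 1 of 10 members, was at least 2-fold higher, where 5.50% of 11518 measured genes were. None was at least 2-fold lower, where 1.66% were. At the smaller step of 0.45, 5 of 10 members were lower (Gclc, Gclm, Gsr, Hmox1 and Txnrd1), where 13.6% of measured genes were, and 2 were higher (Mt2 and Nqo1), where 17.0% were. The count of 5 was 3 after lowess or with macrophage markers equal (Gclc, Gclm and Gsr), and 3 with the median over probe sets (Gclm, Gsr and Hmox1). Nqo1 was at 0.23 after quantile normalization and 0.34 after lowess, where Mt1 was at 0.50 and 0.53. The count of 2 higher was 3 with macrophage markers equal (Mt2, Nqo1 and Mt1). A ratio below 0 was found for 7 of 10 members, against 51.4% of measured genes. The median log2 ratio of the members was -0.33 and that of all measured genes -0.01, a gap of -0.32.

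Most genes with large ratios on these arrays were dim, and 9 of the 10 members were bright. Among 4071 genes with a mean signal of at least 1000, a limit set after the values were seen, 0.811% were higher by 2-fold or more and 1.33% lower. Of the 9 bright members 1 was higher and 0 lower. In that class 13.5% of genes were lower by more than 0.45, as were 5 of the 9 bright members. A ratio below 0 was found for 61.4% of the bright genes and for 7 of the 9. By probe set, 1 of the 19 measured was 2-fold or more higher and 1 as much lower, against 6.29% and 1.58% of measured probe sets with 1 gene symbol. Of the 19, 12 were below 0, against 47.3%.

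**Figure D3:**
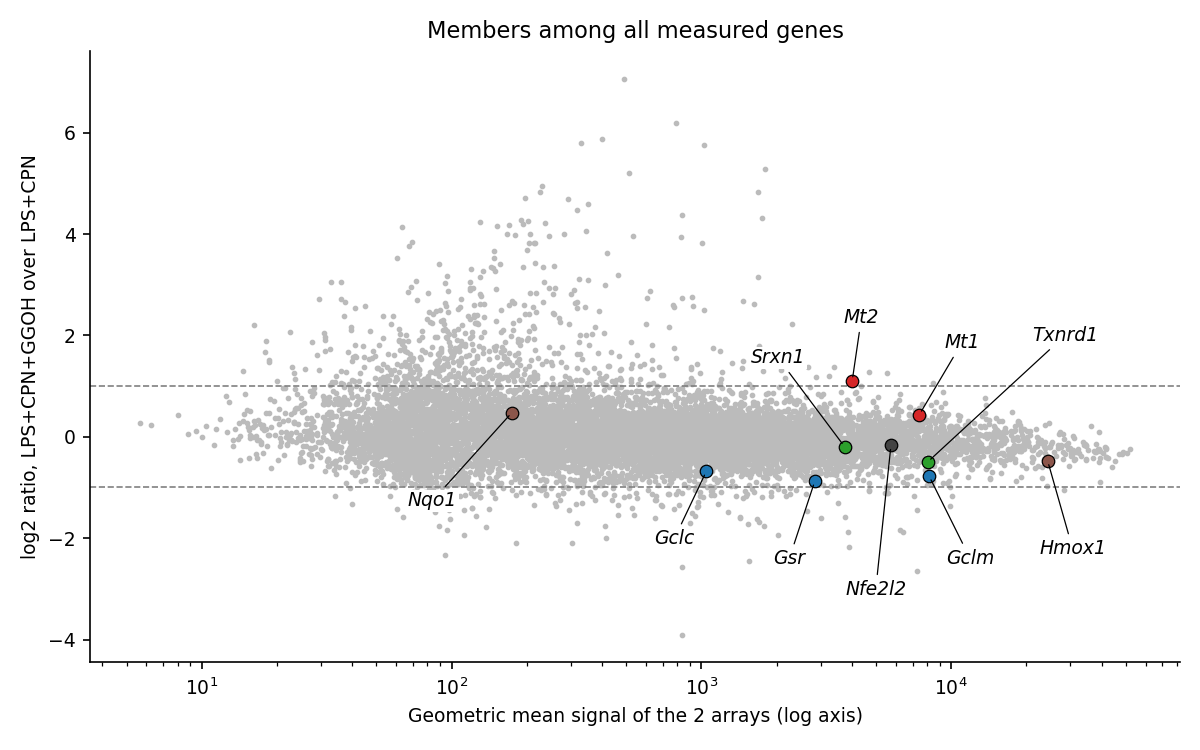
Log2 ratio (LPS+CPN+GGOH over LPS+CPN) of 11518 measured genes against the geometric mean signal of the 2 arrays on a log axis; grey points are genes, labelled points are the 10 members coloured by role, and dashed lines mark 2-fold. The members other than Nqo1 sit among the bright genes, whose ratios reach from -2.66 to 5.75. Mt2 at 1.10 lies above most of these genes, and Gsr, Gclm and Gclc, between -0.88 and -0.68, lie below most.

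A factor applied to a whole array moves the ratios of all members by the same amount. The median ratio of the metallothioneins was 0.77 and that of the glutathione genes -0.78, a difference of 1.55 log2 units. These groups were set against each other after their values were seen. Such a factor cancels in this difference by construction, and it was 1.41 with the median over probe sets. Dividing each array by its median moved the median of all genes to -0.17, and there Mt2 was at 0.94, short of 2-fold, and Gsr was at -1.04, past it. Setting the macrophage markers equal moved the median of all genes to 0.17, and Nfe2l2 turned to 0.02 while Srxn1 was at -0.01. Genes at least 2-fold higher made up 76.8% of all genes past 2-fold as deposited, 61.4% after division by array medians, 62.1% with quantile normalization, 64.8% with lowess and 89.6% with macrophage markers equal.

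**Figure D4:**
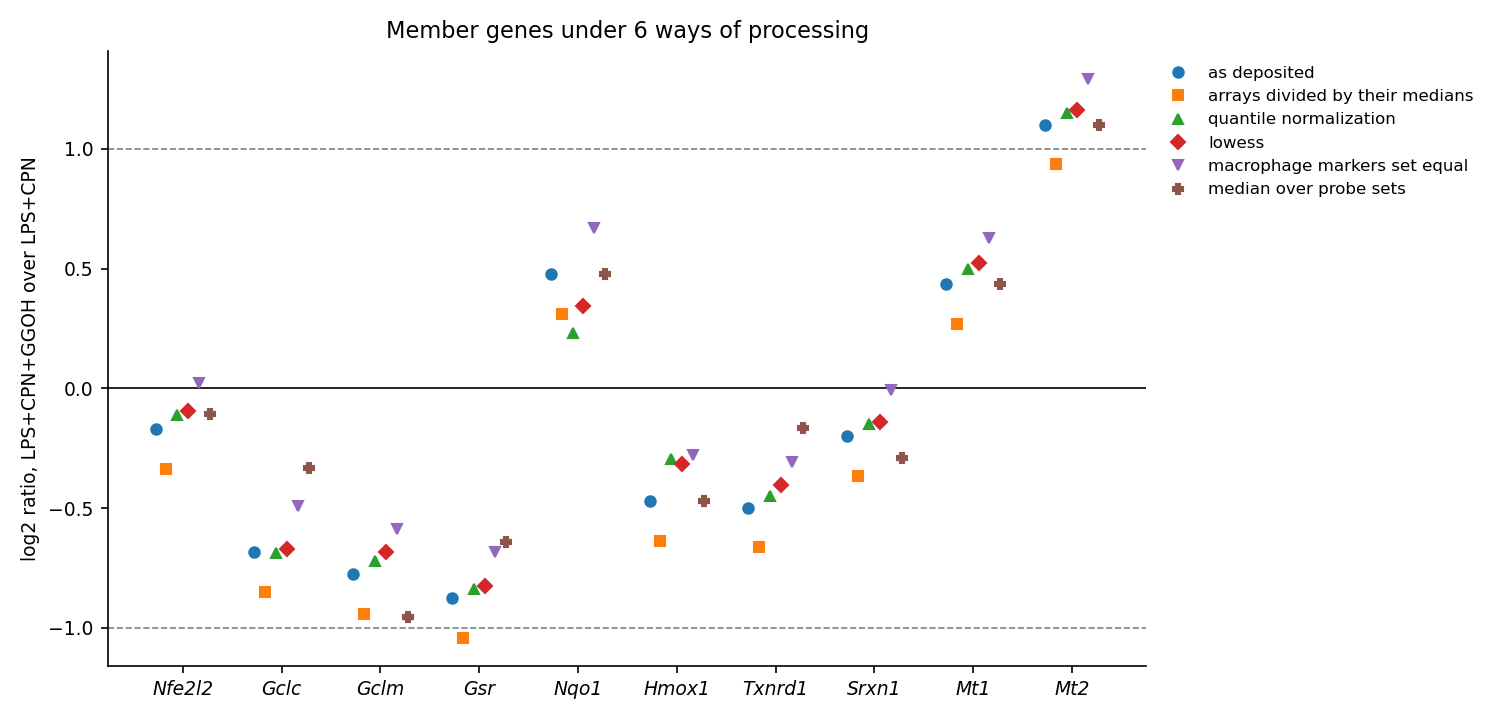
Log2 ratio (LPS+CPN+GGOH over LPS+CPN) of the 10 member genes as deposited and under 5 other ways of processing, 1 symbol each; dashed lines mark 2-fold. Gclc, Gclm and Gsr stay below 0 and Nqo1, Mt1 and Mt2 above 0 in all 6, Nfe2l2 turns to 0.02 with macrophage markers set equal, and Mt2 is short of 2-fold (0.94) with arrays divided by their medians.

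The other genes of these pathways were read from 8 lists with 74 genes, chosen by function. Of these, 69 had a probe set of their own and 66 were measured. Past 2-fold were Slc30a4 (higher) and Slc40a1 (lower), 1 of 66 in each direction beside 5.50% and 1.66% of all measured genes. The median log2 ratio of the 66 was -0.12. Of them, 42 (63.6%) were below 0, beside 51.4% of all measured genes and 61.4% of the bright ones. Of 9 genes that control NRF2, 8 were below 0, beside 51.4% of all measured genes and 61.4% of the bright ones, with a median of -0.27 and none past 2-fold. Maff, a small MAF partner, went from 1234 to 764 (-0.69), and Keap1, the adaptor that targets NRF2 for degradation, from 1654 to 1072 (-0.63). The other Keap1 probe set had a log2 ratio of 0.64, so the sign of Keap1 was not settled by its probe sets.

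In the list of glutathione use and transport, 16 genes had a median of -0.03 and none passed 2-fold. The glutathione transferase gene Gstp1 was higher, 3289 with LPS+CPN and 5601 with GGOH (0.77), as was the peroxidase gene Gpx3, 83.2 and 158 (0.92). In this list 9 genes were below 0 and 7 above. Among 7 measured thioredoxin and peroxiredoxin genes (median -0.15, none past 2-fold), the thioredoxin gene Txn1 had a log2 ratio of -0.39 and its inhibitor Txnip -0.58. By their brightest probe sets, the 5 measured genes of NADPH supply ranged from -0.56 to -0.00448 (median -0.26, none past 2-fold). All 5 were below 0, beside 51.4% of all measured genes. Other probe sets went the other way: Me1 ranged from -0.00448 to 1.69, Tkt from -0.25 to 0.18 and Idh1 from -0.46 to 0.27. Pgd, of the pentose phosphate pathway, had a log2 ratio of -0.56 and the isocitrate dehydrogenase gene Idh1 one of -0.46.

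The detoxifying enzymes spread in both directions without passing 2-fold. Ptgr1, a reductase of leukotrienes and reactive aldehydes, went from 18998 to 10662 (-0.83), and the epoxide hydrolase gene Ephx1 from 201 to 401 (0.997, just short of 2-fold). The median of the 7 measured genes was -0.01. Of 4 genes that remove superoxide and peroxide (median -0.10, none past 2-fold), the mitochondrial superoxide dismutase gene Sod2 had a log2 ratio of -0.46 and the catalase gene Cat one of -0.36.

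Downstream of Hmox1, the ferroportin gene Slc40a1, which exports the iron that heme breakdown frees, read 377 with LPS+CPN and 87.6 with GGOH, 4.30-fold lower. Its second probe set was lower too (-0.95). Fth1, a ferritin subunit gene, had a log2 ratio of -0.31 and the biliverdin reductase gene Blvrb one of -0.33, and the 6 measured heme and iron genes had a median of -0.24. Of 12 measured zinc genes (median 0.13), the vesicular zinc transporter gene Slc30a4 went from 205 to 440, 2.14-fold higher. The zinc importer gene Slc39a10 had a log2 ratio of 0.45. Mtf1, the zinc-sensing activator of metallothionein genes, read 1045 and 701 (-0.58), with probe sets that ranged from -0.58 to 0.64.

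**Figure D5:**
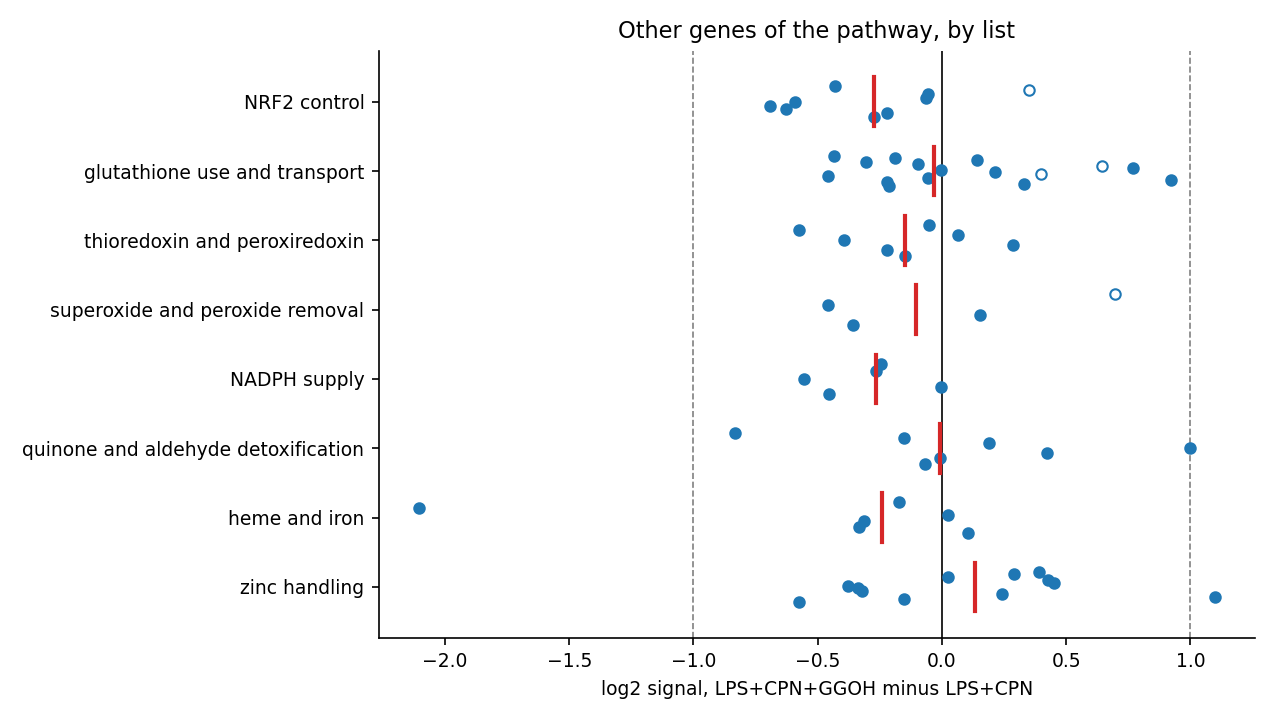
Log2 ratio (LPS+CPN+GGOH minus LPS+CPN) of 66 measured genes in 8 lists around the members, 1 point per gene. Filled points were above the floor on both arrays, open points only with GGOH (a lower bound), red bars are medians and dashed lines mark 2-fold. NRF2 control has a median of -0.27 and zinc handling one of 0.13, and Slc40a1 (-2.11) and Slc30a4 (1.10) are the genes past 2-fold.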

How the data were processed

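Per the labels' protocols, biotinylated cRNA of 2 macrophage cultures was made and measured on 1 array each. The authors deposited 1 linear signal intensity per probe set; MAS5 is named in the submitters' processing notes, and the sources used here give neither its version nor its scaling target. The mean of the central 96% of the deposited intensity values was 500.0 on each array.

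Members and lists were chosen with earlier results of these data known. A single gene symbol was annotated for 34945 of the 45037 probe sets that are no controls, several for 932 and none for 9160, and the identifiers of 34741 were found in a RefSeq gene table. Leaving out 2038 _x_at probe sets gave 18093 genes. The brightest probe set stood for a gene. Signals under the floor (59.9) were set to it, and genes under it on both arrays were not measured, which left 11518. Genes counted at 2-fold, bounds included. Named were all members, from each wider list every gene past 2-fold and the 2 next largest ratios measured on both arrays, and the 3 brightest markers of each marker list. Mt3, Mt4, Itgam, Mertk, S100a9, Camp, Me1, Tkt, Abcc1 and Sqstm1 were added after their values were seen. The 9 alternatives computed were 4 scalings, 3 treatments of low signals (floors at percentiles 25 and 75, or a pseudocount), the median over probe sets, and _x_at probe sets kept. Python 3.11.15, pandas 2.3.3 and statsmodels 0.14.6 (lowess, span 0.4) were used, and the steps were tested on simulated data.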

Additional observations from a re-analysis of the deposited data

How the results depend on the processing

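No paired analysis was possible because each condition has 1 array. Over 9 alternatives, the member median stayed between -0.50 and -0.14, and its gap to the median of all genes narrowed from -0.32 to -0.15 after quantile normalization and to -0.16 after lowess. With arrays divided by their medians 0 members were at least 2-fold higher and 1 was at least 2-fold lower. Of 11547 genes measured there, 529 and 332 were. Lower by more than 0.45 were 3 members after lowess, with macrophage markers equal or with the median over probe sets. Higher by more than that was 1 with arrays divided by their medians, a pseudocount or the floor at percentile 75. With macrophage markers equal 3 were higher by more than that. Of the single members, only Nfe2l2 took the opposite sign under any alternative (0.02 with macrophage markers equal). Nqo1 was under the floor at percentile 75 and had no value there. The median of the other pathway genes became 0.07 with macrophage markers equal. Of these genes, 0 were at least 2-fold higher after lowess, quantile normalization or division by array medians, or with the floor at percentile 75. Of all measured genes, 481 of 11856, 503 of 11545, 529 of 11547 and 126 of 7058 were, in that order. Of the other pathway genes, 2 were with a pseudocount, 3 with macrophage markers equal and 4 with the floor at percentile 25. Of all measured genes, 575 of 11518, 868 of 11535 and 1658 of 15911 were, in that order. At least 2-fold lower were 2 with the floor at percentile 25 and 0 with it at percentile 75. Of all measured genes, 1127 of 15911 and 88 of 7058 were. A signal near the floor is not separable from background here.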

Other observations

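In the wider lists, several genes had probe sets of opposite sign. Log2 ratios ranged from -0.58 to 0.18 for Txnip, from -0.46 to 0.27 for Idh1 and from -0.46 to 0.06 over the 4 measured probe sets of Sod2. They ranged from -0.00448 to 1.69 for Me1, from -0.21 to 1.05 for Abcc1 and from -0.43 to 0.48 for Sqstm1. Me1 and Abcc1 thus each had a probe set more than 2-fold higher that did not stand for the gene. For Fth1 both were below 0 (-0.82 and -0.31), as they were for Cat (-0.45 and -0.36).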
